A study of Homo sapiens with 4 samples.

Results

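In all, 10 genes of the Notch pathway were followed in MCF10A cells, an immortalised human breast epithelial line. They were the receptors NOTCH1, NOTCH2 and NOTCH3, the ligands JAG1, JAG2 and DLL1, the nuclear partners RBPJ and MAML2, and the target genes HES1 and HEY1. The genes were taken by symbol, with every probe set of the Affymetrix U133 Plus 2.0 array that names only that gene. This gave 28 probe sets of the 54675 on the array, and 10 genes of the 19775 that have a probe set of their own. A further probe set names NOTCH2 together with its NOTCH2NL relatives and was left out.

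Cells with short hairpin RNAs directed at Cbl and Cbl-b are labelled double knockdown (dKD, 2 arrays). They were set against cells with a control hairpin (control, 2 arrays). All 4 samples were grown in DFCI-1 medium and harvested during normal growth. No ligand, inhibitor or stress treatment is named beyond that medium. The labels do not give the number of hairpins, whether the cells were a pool or a clone, or whether replicates were separate cultures. The p-values therefore reflect only how far replicate arrays differed, and that spread may be technical.

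In Notch signalling, a ligand on one cell binds a receptor on its neighbour. The receptor is then cut by an ADAM protease and by gamma-secretase, and the freed intracellular part enters the nucleus, joins the DNA-binding protein RBPJ and a Mastermind coactivator such as MAML2, and switches on HES and HEY genes, which encode transcriptional repressors. Transcript levels do not measure this cleavage. In the mouse mammary gland the pathway is known for its part in luminal cell fate.

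RBPJ binds DNA at the core letters TGGGAA, and the HES1 promoter is a classic example of a target that carries them. Promoter windows of 8 of the 10 members, all but DLL1 and HEY1, were matched by symbol in the RefSeq table of the GRCh38.p14 build. The 250 bases before the gene start are printed below for HES1, the best-known target, and for JAG1, a ligand, 5′ to 3′ on the strand of the gene. Capitals mark TGGGAA or its reverse complement.
HES1, chr3:194135898-194136147, plus strand: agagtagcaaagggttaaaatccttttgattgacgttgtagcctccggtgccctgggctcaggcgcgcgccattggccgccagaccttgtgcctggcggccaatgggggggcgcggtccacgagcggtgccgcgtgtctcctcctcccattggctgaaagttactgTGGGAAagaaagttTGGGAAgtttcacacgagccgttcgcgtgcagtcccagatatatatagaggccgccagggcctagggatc
JAG1, chr20:10674000-10674249, minus strand: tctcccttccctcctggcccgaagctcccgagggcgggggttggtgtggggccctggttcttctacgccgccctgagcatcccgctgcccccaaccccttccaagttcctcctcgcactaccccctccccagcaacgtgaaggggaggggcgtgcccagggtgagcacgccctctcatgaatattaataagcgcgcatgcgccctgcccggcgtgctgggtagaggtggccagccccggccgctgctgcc
HES1 held 2 copies, starting 84 and 70 bases before the gene start and separated by 8 bases. JAG1 held none on either strand. Of all 35116 promoter windows of that length, 20.8% held the motif at least once and 2.9% held 2 or more copies, so a single copy is common. Among the 7 members with 1 window, only HES1 held it. Of the 5 windows of RBPJ, 1 held it, also with 2 copies, 1 on each strand. A match is a run of letters and not a measured binding site.

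The targeted genes were read before the members. On its brightest probe set CBL had intensities of 31.1 and 29.0 on the dKD arrays, against 125.9 and 84.4 on the control arrays (log2 change -1.37 ± 0.15 SE, adjusted p = 0.00209 by limma over all probe sets). The other 2 CBL probe sets above the brightness minimum were not called (log2 changes -0.33 with adjusted p = 0.0937 and -0.20 with adjusted p = 0.222 in the limma probe set test). CBLB went against its label, with 94.8 and 99.5 on the dKD arrays and 64.3 and 70.05 on the control arrays (0.45 ± 0.09 SE, adjusted p = 0.018), and its second probe set above the minimum was not called (0.40, adjusted p = 0.0878). In the gene test, the log2 change of CBLB was 0.48 without double knockdown replicate 1 and 0.42 without replicate 2, and neither fit called it. Without control replicate 1 and 2 it was 0.40 and 0.50, and it was called in both. CBL was called lower whichever array was left out. Because CBLB went against its label, each direction given here is that of the arrays labelled double knockdown. Array medians lay between 14.5 and 14.7. All 7 basal mammary markers with a probe set of their own, among them KRT5, KRT14 and CDH1, were above the brightness minimum of 14.7. Their summed intensity was 17580 to 19190 on the dKD arrays and 27290 to 29320 on the control arrays. KRT14 had the largest fall, with 4710 and 4266 on the dKD arrays and 13560 and 14080 on the control arrays. KRT5 also fell, with 4824 and 4872 on the dKD arrays and 8245 and 7866 on the control arrays. ITGB4 was lower too, at 1117 and 1067 on the dKD arrays and 1646 and 1214 on the control arrays. LAMB3 went the other way, with 5854 and 5032 on the dKD arrays and 3119 and 2096 on the control arrays. The groups overlapped for CDH1, CDH3 and EGFR. Without KRT14 the sums overlapped (13320 to 14480 on the dKD arrays, 13210 to 15760 on the control arrays). The falls of KRT5 and ITGB4 and the rise of LAMB3 all enter those sums. Of the markers of other cell types, 1 of 3 for leukocytes, 1 of 4 for endothelium and 2 of 6 for fibroblasts reached the minimum, as did 2 of 3 for luminal hormone receptor cells, and none was listed at 0. The fibroblast sum was 233 to 234.5 on the dKD arrays and 305 to 308 on the control arrays. DCN made up most of that gap, with 54.9 and 77.9 on the dKD arrays and 127.9 and 126.9 on the control arrays, and without it the sums overlapped (156.7 to 177.7 on the dKD arrays, 177.2 to 180.8 on the control arrays). The endothelial sum was 49.3 to 52.3 on the dKD arrays and 56.1 to 57.02 on the control arrays. For luminal hormone receptor markers it was 46.3 to 50.7 on the dKD arrays and 53.7 to 55.3 on the control arrays, and for leukocytes 28.4 to 29.0 on the dKD arrays and 27.3 to 31.1 on the control arrays. The part of these shifts in the results below was not tested. In such bulk RNA a change in the number of cells of a kind and a change in RNA per cell cannot be told apart.

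The clearest changes among the members were in ligands and in a target gene. JAG1, DLL1 and HEY1 rose by 1.36-fold to 1.40-fold on the log2(intensity + 16) scale, and none of the members was called lower. Each gene was read on its brightest probe set, and a change was called at an adjusted p under 0.05 by limma over all 12951 genes bright enough to test. All 10 members were tested, 3 rose and 7 did not pass. Of all genes tested, 16% were called, 9.41% as higher and 6.6% as lower. The median log2 change was 0.14 over the members and -0.01 over all genes tested. The arrays of the groups did not overlap for 6 of the 10 members, which is close to the 57.5% of all genes tested for which this held. The list itself was not tested against this background.

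**Figure D1:**
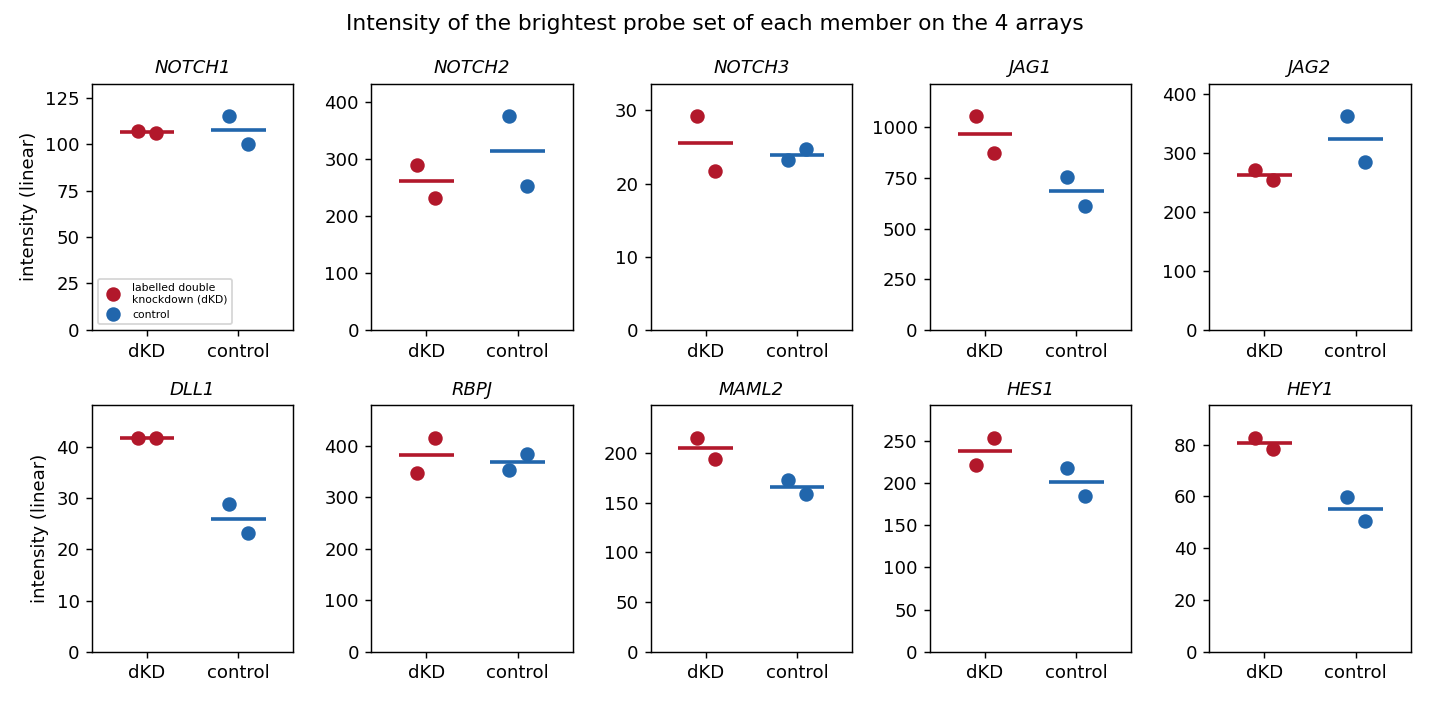
Linear intensity of the brightest probe set of each member on each array, with the dKD arrays at left in red and the control arrays at right in blue. Points are single arrays and lines are means of 2 arrays. For JAG1, DLL1, MAML2, HES1 and HEY1 both dKD arrays lie above both control arrays, and for JAG2 both lie below.

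JAG1 encodes Jagged-1, a transmembrane ligand. On its brightest probe set it had intensities of 1057 and 872 on the dKD arrays, against 756 and 611 on the control arrays. The lower dKD array thus lay above the higher control array, although the arrays within a group differed by 0.27 (dKD) and 0.30 (control) on the log2 scale. The rise was 0.49 ± 0.13 SE on that scale (1.40-fold, 95% interval 0.18 to 0.80, adjusted p = 0.0434). JAG1 has 5 probe sets above the brightness minimum, and on 4 of them the groups were apart with log2 changes of 0.37 to 0.49. The second brightest read 757 and 630.5 on the dKD arrays and 591 and 433 on the control arrays. The fifth, a dim one, read 15.3 and 20.0 on the dKD arrays and 16.2 and 15.3 on the control arrays (0.08, adjusted p = 0.647). The JAG1 probe set below the minimum had 8.77 and 11.2 on the dKD arrays and 11.9 and 11.8 on the control arrays (log2 change -0.10). All JAG1 probe sets are of types that can match several transcripts.

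The JAG1 call was a narrow one. When each of the 22904 probe sets above the minimum was tested as its own feature, of which 13.7% were called, the brightest JAG1 probe set had adjusted p = 0.0504 and the next 3 had 0.105, 0.139 and 0.153. In the gene test the log2 change was 0.34 (adjusted p = 0.137) without control replicate 2, 0.35 (0.257) without double knockdown replicate 1, and 0.63 (0.07) without double knockdown replicate 2. It was called without control replicate 1, at 0.64. JAG1 also missed the threshold with a constant of 1 (0.0775) or 64 (0.0677), quantile normalization (0.0512), no brightness filter (0.127) and the mean of its probe sets (0.113).

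DLL1 encodes Delta-like 1, a ligand of the other family. Its brightest probe set had 41.9 on each dKD array and 28.8 and 23.2 on the control arrays. The dKD values are identical in every deposited digit, as was the case on the dKD arrays for 109 of the 22904 probe sets tested, so the error here comes from the control pair and from limma's shared variance. DLL1 rose by 0.47 ± 0.10 SE on the log2 scale (1.38-fold, or 1.61-fold in intensity without the constant, adjusted p = 0.017). The other probe set of DLL1 had 20.4 and 19.3 on the dKD arrays, between the 14.3 and 21.9 of the control arrays (0.08, adjusted p = 0.709 in the probe set test). Both are of a type that can match several transcripts. The gene test gave adjusted p = 0.108 without double knockdown replicate 1 and 0.118 without replicate 2. Without a control array the call held, at log2 changes of 0.56 and 0.37.

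JAG2, the second Jagged ligand, was on the opposite side. Its brightest probe set read 272 and 254 on the dKD arrays and 363 and 284.5 on the control arrays. The other read 163 and 153.5 on the dKD arrays and 213.5 and 165 on the control arrays. Both probe sets thus had the dKD arrays below the control arrays, with control replicate 1 the highest in each. The log2 change was -0.28 ± 0.12 SE (95% interval -0.56 to 0.0043, adjusted p = 0.169), which did not pass. Without control replicate 2 it was -0.44 with adjusted p = 0.0326, and without control replicate 1 it was -0.11. The difference between the changes of JAG1 and JAG2 was not tested.

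**Figure D2:**
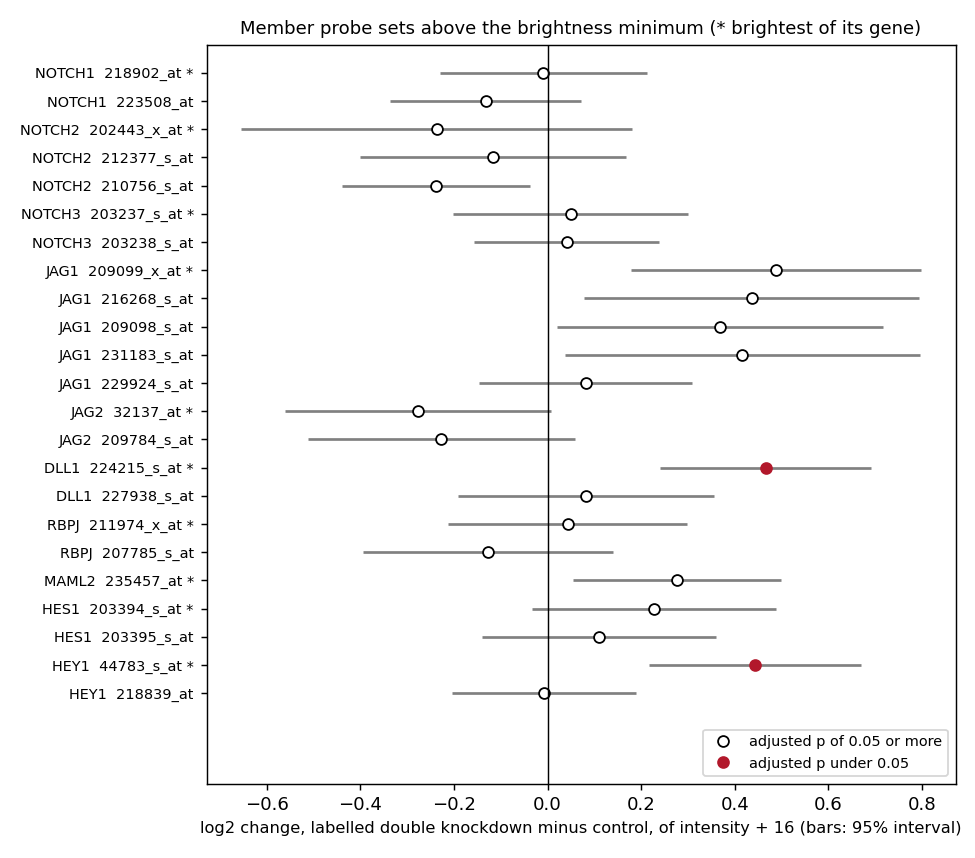
Log2 change, dKD minus control, of intensity + 16 for each of the 23 member probe sets above the brightness minimum, with 95% intervals from limma. Filled points passed the test over all probe sets, which were the brightest ones of DLL1 and HEY1. The 4 brighter JAG1 probe sets lie between 0.37 and 0.49, and the probe sets of HEY1 differ from each other.

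HES1 and HEY1 encode basic helix-loop-helix repressors and are the usual readouts of Notch activity. HEY1 had 82.8 and 78.4 on the dKD arrays and 59.7 and 50.6 on the control arrays on its brightest probe set. The gap between the groups was wider than that within either pair, and HEY1 rose by 0.44 ± 0.10 SE (1.36-fold, adjusted p = 0.0207). Its other probe set did not show the rise. It had 45.8 and 46.7 on the dKD arrays, against 47.8 and 45.5 on the control arrays (-0.01, 95% interval -0.20 to 0.19, adjusted p = 0.969 in the probe set test). By its suffix the first is of a type that can match several transcripts, and the suffix of the second carries no such mark. The rise of HEY1 is therefore a result of 1 probe set. It was not called without control replicate 2 (0.35, adjusted p = 0.0571), double knockdown replicate 1 (0.41, 0.144) or double knockdown replicate 2 (0.48, 0.11), nor with the mean of its probe sets (0.22, 0.0781).

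HES1, whose promoter holds the copies of the motif marked above, had 222 and 254 on the dKD arrays and 218 and 184 on the control arrays. The groups were apart by a small margin, since the lower dKD array exceeded the higher control array by less than the gap within either pair. The log2 change was 0.23 ± 0.11 SE (95% interval -0.03 to 0.48, adjusted p = 0.215), so no change of HES1 passed the test, and a rise of up to 1.40-fold on the log2(intensity + 16) scale is within the interval. On the second probe set, 96.4 and 112 on the dKD arrays overlapped with 103 and 88.2 on the control arrays (0.11, adjusted p = 0.565 in the probe set test). The last HES1 probe set lay below the minimum, at 7.1 and 7.31 on the dKD arrays and 7.76 and 6.55 on the control arrays.

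None of the receptor genes passed. NOTCH1 had 107 and 106 on the dKD arrays and 115 and 100.1 on the control arrays, with a log2 change of -0.01 ± 0.09 SE and a 95% interval of -0.23 to 0.21. The interval holds a fall of up to 1.17-fold and a rise of up to 1.16-fold on that scale. NOTCH3 was dim, at 29.3 and 21.7 on the dKD arrays, on either side of the 23.2 and 24.7 of the control arrays (0.05, 95% interval -0.20 to 0.30).

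NOTCH2 was the receptor with the widest spread between arrays. Its brightest probe set had 290.2 and 232 on the dKD arrays and 376 and 253 on the control arrays. The control pair differed by 0.54 on the log2 scale, more than the difference between the groups of -0.24 ± 0.18 SE (adjusted p = 0.427). The dimmest of 3 above the minimum separated the groups, with 48.1 and 48.8 on the dKD arrays and 62.4 and 57.7 on the control arrays (-0.24 ± 0.09 SE, adjusted p = 0.113 in the probe set test). All 3 NOTCH2 probe sets above the minimum had negative log2 changes, and none passed. The NOTCH2NL genes are near-identical copies of the start of NOTCH2, so probe sets that can match several transcripts may also read them.

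The genes of the nuclear complex did not pass either. RBPJ had 347 and 416 on the dKD arrays and 353 and 385 on the control arrays (log2 change 0.04 ± 0.11 SE, 95% interval -0.21 to 0.30). Its second probe set had 269 and 275 on the dKD arrays and 334 and 267 on the control arrays (-0.13, adjusted p = 0.526 in the probe set test). MAML2 was higher on both dKD arrays, at 216 and 194, than on the control arrays, at 173.5 and 159. Its log2 change of 0.28 ± 0.10 SE had an unadjusted p of 0.0203 and an adjusted p of 0.0905, the nearest to a call among the 7 members that were not called. An unadjusted p under 0.05 was reached by 4 of the 10 members and by 30.6% of all genes tested.

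**Figure D3:**
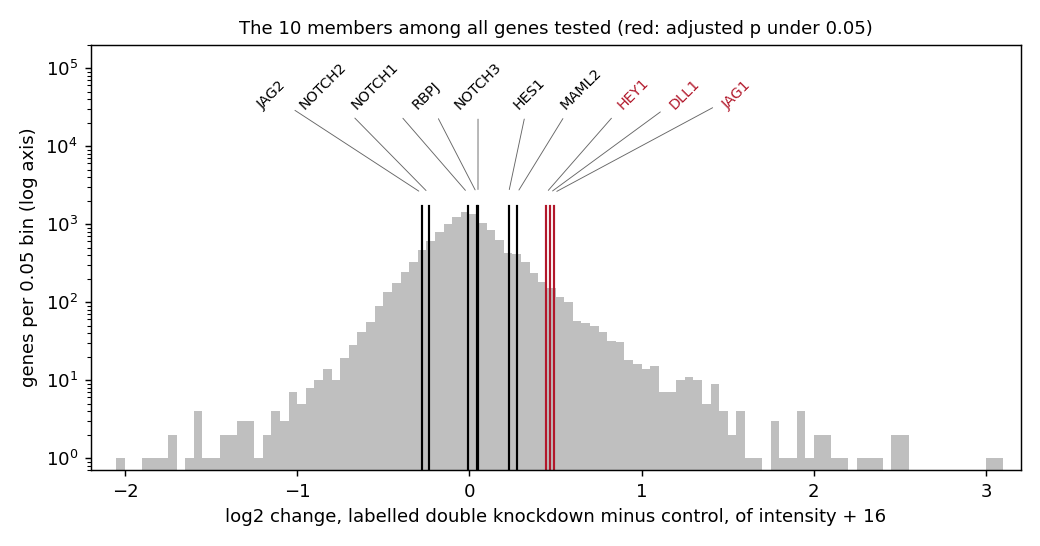
Number of genes (log axis) by log2 change, dKD minus control, of intensity + 16, over all 12951 genes tested, with the 10 members as vertical lines. The members run from -0.28 for JAG2 to 0.49 for JAG1, inside the bulk of the distribution, and the 3 that were called are in red at the upper end.

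Probe sets of the same gene were then compared as a group. Of the 28 member probe sets 23 were above the minimum and 5 were not. Of the 23, 2 were called, both higher (DLL1 and HEY1), against 13.7% of all probe sets tested, 7.97% of them as higher. For 12 of the 23 the groups were apart, 8 with the dKD arrays higher and 4 with them lower, against 56.7% of all probe sets. An unadjusted p under 0.05 was reached by 8 of the 23, 4 of them for JAG1, and by 28.9% of all probe sets. The 9 ligand probe sets had a median log2 change of 0.37, the 7 receptor probe sets of -0.12. Since 5 of the 9 ligand probe sets are of JAG1, that ligand median mostly reflects 1 gene. Both JAG2 probe sets were negative. Probe sets of a gene share the sample and often the transcript, so they are not replicates.

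**Figure D4:**
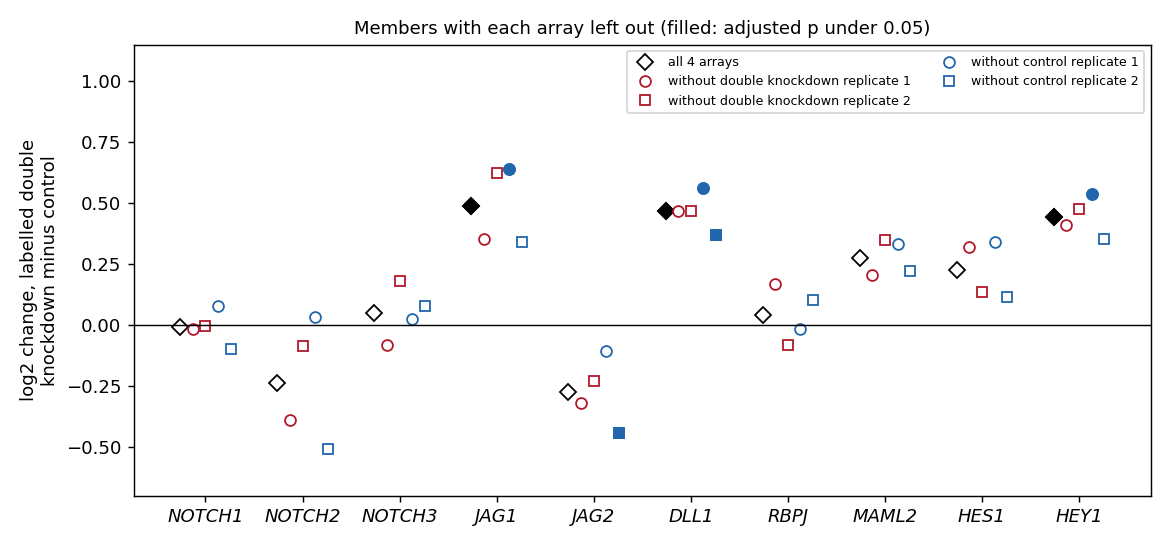
Log2 change, dKD minus control, of each member with all 4 arrays (diamonds) and with each array left out (red for dKD arrays, blue for control arrays, circles for replicate 1 and squares for replicate 2). Filled symbols have an adjusted p under 0.05. JAG1, DLL1 and HEY1 stay above 0 in each of these fits. None of the members is filled where a dKD array is left out. In those fits far fewer of all genes were called than with all 4 arrays.

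The rest of the pathway was described with a list of 60 further genes in 6 roles, of which 53 were tested, 3 had a probe set too dim to test and 4 were not analysed here. Of the 53, 5 rose and 8 fell, or 24.5% against 16% of all genes tested, and 40 did not pass. Their median log2 change was -0.05. Called genes went in both directions within 2 of the roles, so no role is summarised by its name alone.

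**Figure D5:**
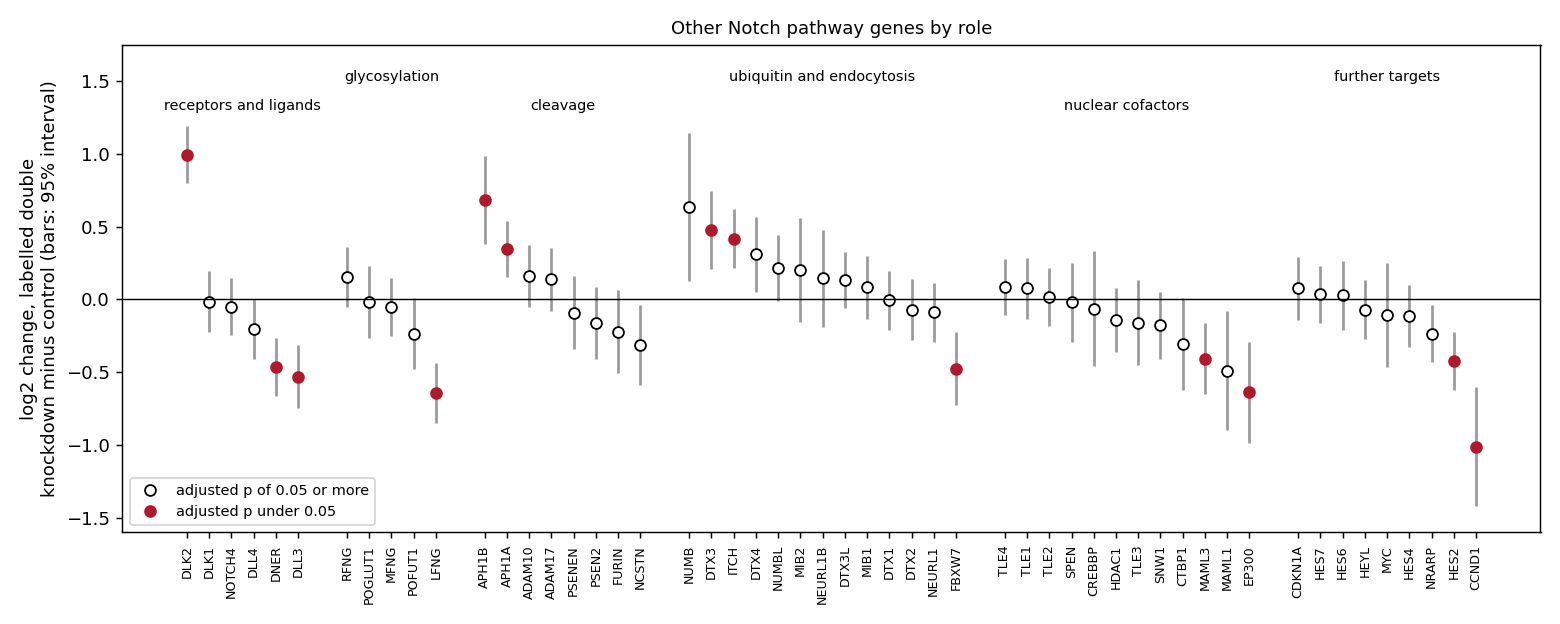
Log2 change, dKD minus control, of intensity + 16 for the 53 tested pathway genes by role, with 95% intervals from limma and filled points for an adjusted p under 0.05. DLK2 has the highest value, 1.00, and CCND1 the lowest, -1.01.

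Among the 6 other receptors and ligands, 1 rose and 2 fell, or 50% called against 16% of all genes tested. DLK2, a Delta-like protein that lacks the receptor-binding DSL domain, rose most of the whole pathway list, with 591.5 and 614 on the dKD arrays and 300.2 and 289 on the control arrays (log2 change 1.00 ± 0.09 SE, adjusted p = 0.000409). The dKD arrays read about 2.05 times the control arrays, and the call held whichever array was left out. DNER, a transmembrane protein with EGF repeats described as a Notch ligand in the nervous system, fell to 571 and 548 on the dKD arrays, against 800 and 755 on the control arrays (-0.46 ± 0.09 SE, adjusted p = 0.0123). DLL3, a ligand relative that acts inside the producing cell, had 44.1 and 47.1 on the dKD arrays and 68.3 and 77.8 on the control arrays (-0.53 ± 0.09 SE, adjusted p = 0.00974). The other 3 probe sets of DLL3 had log2 changes of 0.17, -0.02 and -0.09 and were not called. Without double knockdown replicate 1 or 2, DNER had adjusted p = 0.0754 and 0.118, and DLL3 had 0.0838 and 0.0643.

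Of 5 genes of receptor glycosylation 1 changed, or 20% called against 16% of all genes tested. LFNG, or Lunatic Fringe, a glycosyltransferase that extends the sugars on Notch and shifts its response between Delta and Jagged ligands, had 22.7 and 19.5 on the dKD arrays and 41.2 and 42.6 on the control arrays. It fell by 0.64 ± 0.09 SE on the log2 scale (adjusted p = 0.00379), with the dKD mean at 0.503 of the control mean in intensity, and was called whichever array was left out. POFUT1, which adds the first fucose, had a log2 change of -0.23 (adjusted p = 0.174) and RFNG, Radical Fringe, of 0.15 (0.295).

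In the cleavage group 2 of 8 tested genes rose, or 25% called against 16% of all genes tested. Each of the 2 encodes the APH1 subunit of gamma-secretase. APH1B had 147 and 176 on the dKD arrays and 82.6 and 107 on the control arrays (0.69 ± 0.13 SE, adjusted p = 0.0131), and each of its 2 probe sets was called. APH1A had 1001 and 998.5 on the dKD arrays and 782 and 780.1 on the control arrays (0.35 ± 0.08 SE, adjusted p = 0.028). NCSTN, the nicastrin subunit of the same protease, had a log2 change of -0.31 (adjusted p = 0.116). APH1B had adjusted p = 0.0989 without double knockdown replicate 2. APH1A had 0.0587 and 0.0542 without control replicate 1 and 2, and 0.178 and 0.188 without double knockdown replicate 1 and 2, while NCSTN had 0.0446 without control replicate 2.

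Of the 13 genes of ubiquitin transfer and endocytosis 2 rose and 1 fell, or 23.1% called against 16% of all genes tested. ITCH, a HECT ubiquitin ligase that acts on Notch, had 266 and 251 on the dKD arrays and 184.5 and 194.5 on the control arrays (0.42 ± 0.09 SE, adjusted p = 0.0178), and 4 of its 5 probe sets above the minimum were called, all higher. FBXW7, which marks the active Notch fragment for breakdown, had 112 and 96.3 on the dKD arrays and 139.5 and 163 on the control arrays (-0.48 ± 0.11 SE, adjusted p = 0.0243). DTX3, of the Deltex family, rose on its brightest probe set, with 44.5 and 54.4 on the dKD arrays and 27.2 and 34.8 on the control arrays (0.48 ± 0.12 SE, adjusted p = 0.0301). The next 2 probe sets of DTX3 had log2 changes of -0.04 and -0.21, and the mean of its probe sets 0.01. Without control replicate 1, ITCH had adjusted p = 0.053 and DTX3 0.102, and FBXW7 had 0.0745 without control replicate 2. Without double knockdown replicate 1 and 2, the values were 0.15 and 0.101 for ITCH, 0.0615 and 0.194 for FBXW7, and 0.0615 and 0.222 for DTX3.

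Of 12 tested nuclear cofactors 2 fell and none rose, so the 16.7% called was close to the 16% of all genes tested. EP300, the acetyltransferase p300 that the Mastermind proteins recruit, had 29.2 and 25.6 on the dKD arrays and 63.4 and 41.4 on the control arrays (-0.64 ± 0.15 SE, adjusted p = 0.0258). MAML3, a Mastermind relative of MAML2, had 22.8 and 22.2 on the dKD arrays and 39.8 and 30.6 on the control arrays (-0.41 ± 0.11 SE, adjusted p = 0.0383). MAML1 had 292 and 246 on the dKD arrays and 468 and 312 on the control arrays (-0.49 ± 0.18 SE, adjusted p = 0.101), with a wide gap within the control pair. Without control replicate 1, EP300 had adjusted p = 0.0513 and MAML3 0.108, and without control replicate 2 MAML1 had 0.013. Without double knockdown replicate 1 and 2, EP300 had 0.0808 and 0.143, and MAML3 0.163 and 0.203.

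Of 9 tested further target genes 2 fell and none rose, or 22.2% called against 16% of all genes tested. CCND1, which encodes cyclin D1 and answers to several pathways besides Notch, had 103 and 81.2 on the dKD arrays and 246 and 164 on the control arrays (-1.01 ± 0.18 SE, adjusted p = 0.00953). HES2, a HES relative, had 91.4 and 91.7 on the dKD arrays and 132 and 124 on the control arrays (-0.42 ± 0.09 SE, adjusted p = 0.0155). NRARP, a feedback inhibitor induced by Notch, had 36.9 on each dKD array and 44.7 and 48.0 on the control arrays (-0.24 ± 0.09 SE, adjusted p = 0.103), which did not pass. CCND1 had adjusted p = 0.062 without double knockdown replicate 2, and HES2 had 0.114 and 0.121 without double knockdown replicate 1 and 2. Among the HES and HEY family members named here, HEY1 was thus higher on 1 probe set, HES2 lower, and HES1 not called.

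Settings other than the choice of arrays ended some of these calls too. Without a brightness filter, CCND1 (adjusted p = 0.0606), APH1B (0.0595), FBXW7 (0.0681), DTX3 (0.0858), MAML3 (0.0864) and EP300 (0.1) were not called. With the mean of all probe sets of a gene, DLL3 (0.341), APH1A (0.0517), DTX3 (0.917), MAML3 (0.0777), EP300 (0.0847) and HES2 (0.0866) were not. A constant of 64 ended the calls of DTX3 (0.0696), MAML3 (0.0986) and EP300 (0.0748), and a constant of 1 that of APH1A (0.062). APH1A was also not called with only probe sets specific to 1 transcript by their suffix (0.574). DLK2, the non-canonical ligand gene that rose, and LFNG, the Fringe gene that fell, were called under every alternative in which they could be tested. The log2 changes were 0.90 to 1.03 for DLK2 and -0.96 to -0.29 for LFNG. The only probe set of DLK2 is of a type that can match several transcripts, so the setting without such probe sets did not test it. LFNG was too dim for a stricter brightness minimum of 50. Its other probe set, below the main minimum, had 13.5 and 13.6 on the dKD arrays and 12.7 and 11.9 on the control arrays.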

How the data were processed

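Expression in MCF10A cells was measured on 4 Affymetrix arrays, 2 per group, and groups were read from the sample titles. The authors deposited 1 intensity per probe set and array, linear by its range. The summarisation and normalization behind it are not given in the sources used. Array medians and upper percentiles were close, so no further normalization was applied. Of the 54675 probe sets, 41091 named 1 gene in the platform annotation, 1801 several and 11721 none, and 62 were controls. RefSeq (GRCh38.p14) gave the current symbol for 41037 of those naming 1 gene, matched on the gene ID.

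Values were taken as log2(intensity + 16), a scale that understates the change of dim genes. The brightest probe set by its mean on all arrays stood for each gene. Genes, and separately probe sets, with a mean of at least 14.7, the median over all probe sets, were compared between groups by linear models in limma 3.58.1 (R 4.3.3, eBayes, two-sided, all 4 arrays, no covariate), adjusted by Benjamini-Hochberg over 12951 genes or 22904 probe sets and called under 0.05. Adjusted p-values are from the gene test unless the text names the probe set test. Probe sets below the minimum got no adjusted p. SEs are limma's moderated ones. The number of arrays limits the precision. The fit was tested on simulated data.

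The members and lists were chosen with earlier results of these data known. Named were CBL, CBLB and the members. From the pathway list, each called gene and up to 3 genes per role with the smallest p were named. Every member probe set was fitted, but the text does not give values for each. Alternatives changed the constant, the brightness minimum, the normalization, the variance prior, the choice of probe sets, the arrays used and the use of the replicate number as a block.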

Additional observations from a re-analysis of the deposited data

How the results depend on the processing

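Of the 3 members called in the gene test, DLL1 and HEY1 held their calls in a larger share of the alternatives they entered than JAG1. These alternatives were not the same for each gene. DLL1 was too dim for the stricter brightness minimum, and JAG1 and DLL1 had no probe set specific to 1 transcript. Over 14 alternatives JAG1 stayed positive (0.28 to 0.64) and lost its call in 8, with adjusted p from 0.0116 to 0.257. DLL1 lost its call in 2 of 13 (0.013 to 0.118). HEY1 lost it in 5 of 15 (0.0146 to 0.971), and with only probe sets specific to 1 transcript by their suffix its log2 change was -0.0081. With each array left out, the gene test by limma called 0 to 3 members, 2 to 16 other pathway genes and 536 to 1995 of all genes. These fits assume that the array left alone varies like the other group. None of the members was called without either double knockdown array, and far fewer of all genes were called there than with all 4 arrays. With probe sets averaged per gene, 1 member, 7 pathway genes and 1885 of all 12144 genes were called, and without a brightness filter 7 pathway genes and 1529 of all 19775. With only those specific probe sets 0 of the 4 members left to test were called by limma, with 2 at an unadjusted p under 0.05, and 1542 of all 9746 genes. The 4 were NOTCH1, JAG2, MAML2 and HEY1, so that setting did not test JAG1 or DLL1. In the probe set test, leaving out an array gave 0 to 5 member probe sets and 172 to 3065 of all probe sets, against 2 and 3133 with all arrays. Without control replicate 2 the 2 called were both of JAG2 and lower (log2 changes -0.44 and -0.40), and those of DLL1 and HEY1 lost their calls. The gene test without that array called 1 member higher and 1 lower. Without a filter the probe set test called 0 of 28 member probe sets, with 5 at an unadjusted p under 0.05, and 1647 of all 41091. The cause of these shifts was not tested.

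The replicate number as a block raised the called member probe sets to 6, of which 4 were of JAG1 (adjusted p = 0.018 to 0.048), left the members called in the gene test at 3 and gave 15 other pathway genes. It also raised the calls to 3369 of all 22904 probe sets and 2504 of all 12951 genes. The differences between replicate 1 and 2 correlated at 0.24 across genes between the groups. The labels do not say that equal numbers share a culture or day, and there are only 2 pairs, so the samples are taken to share only a number.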
